A study of Mus musculus with 10 samples.

Results

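The 8 genes described here encode small leucine-rich proteoglycans (SLRPs) of connective tissue, namely Dcn, Bgn, Aspn, Lum, Fmod, Prelp, Omd and Ogn. They were found by gene symbol, and all 8 were listed in both tables of values, among 17816 genes at day 7 and 20007 genes in adult testis. The study deleted Rnf20, the gene of an E3 ubiquitin ligase for histone H2B, in mice that carry loxP sites around exons of Rnf20 and a Cre driven by the Amh promoter, which is active in the Sertoli cells and not in the stroma. At 7 days after birth, 2 samples of Sertoli cells from Rnf20 Flox/Flox mice (controls, with the genotype WT on the labels) were set against 2 from Amh-Rnf20-/- mice. The growth field of the labels reads adult for every sample, those of day 7 included, and the age here is taken from their titles and from the methods. These cells had been isolated with collagenase and trypsin, then cultured and passaged as adherent cells. In adults, 3 whole testes labelled WT were set against 3 labelled as Rnf20 conditional knockout, taken here as Amh-Rnf20-/-. No treatment was given in any group, and the adult age was not stated in the sources used here. The methods name 3 individuals per group at day 7, but the labels do not tie a sample to an animal, so a p-value measures the spread between these samples, which may be technical. Both kinds of sample hold many cells, so that fewer cells of a type and less RNA per cell cannot be told apart.

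The SLRPs are secreted proteins whose curved leucine-rich repeats bind fibrillar collagen and shape the assembly and width of its fibrils, and some of them also bind growth factors and receptors at the cell surface. They fall into classes by sequence, with Dcn, Bgn and Aspn in class I, Lum, Fmod, Prelp and Omd in class II, and Ogn in class III. Class I members mostly carry chains of chondroitin or dermatan sulfate, and class II members mostly carry keratan sulfate. In many organs fibroblasts and smooth muscle-like cells are their main source, and in the testis such cells lie around and between the seminiferous tubules.

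The targeted gene was checked first. At day 7 Rnf20 was at 16.6 and 16.0 FPKM (fragments scaled to gene length and library size) in the control samples and at 10.2 and 12.6 FPKM in those labelled Amh-Rnf20-/-, which differed by -0.49 on the log2 scale (SE 0.12, edgeR adjusted p = 0.222). In adult testis Rnf20 stood at 4.89, 3.32 and 4.09 FPKM in the controls and at 9.16, 5.76 and 9.85 FPKM in the libraries labelled Amh-Rnf20-/-, and each of these was above every control. The log2 fold change was 0.12 under TMM scaling, which trims genes with extreme ratios (SE 0.27, edgeR adjusted p = 0.688), 0.97 under total-count scaling (edgeR adjusted p = 0.0168) and -0.08 under median-ratio scaling (edgeR adjusted p = 0.804). Rnf20 RNA of the whole testis was thus not called lower under the knockout label by any of these, and directions in adult testis are given by label. The values count reads over the whole gene, while the loxP sites lie around some of its exons, so RNA of the other exons still counts. Whole testis also holds cells that the study did not target. These values thus cannot show how far Rnf20 was deleted in the Sertoli cells. The sets differed widely in germ cell RNA, with a summed FPKM of the 10 spermatid markers of 124814 to 193412 in the libraries labelled WT and of 15.3 to 132 in the labelled knockouts. Depth was even, with 17477268 to 17705347 estimated counts per day 7 sample and 15431912 to 16574144 per adult library. One adult library stood apart, the labelled knockout 1, with a summed FPKM of the 10 spermatocyte markers of 9.51 against 224 and 356 in the other labelled knockouts, and a summed FPKM of the 18 Sertoli markers of 3287 against 8063 and 9628. The day 7 pair from Amh-Rnf20-/- mice was also less alike than its control pair, with a chi-square over all genes, divided by its degrees of freedom, of 34.3 against 2.65.

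By position, 7 of the 8 genes sit in 3 clusters of SLRP genes on the GRCm38.p6 build. Positions and gaps are from RefSeq, and strands and exon overlaps are from GENCODE. Dcn (chr10:97479500-97518163) is followed after 47337 bases by Lum (chr10:97565501-97572703). Aspn (chr13:49544443-49567565), Omd (chr13:49582462-49592612) and Ogn (chr13:49608015-49624501) follow each other on the plus strand, with gaps of 14896 and 15402 bases, and Ecm2 lies 11653 bases before Aspn. Prelp (chr1:133910304-133930102, minus strand) and Fmod (chr1:134037254-134048280, plus strand) lie 107151 bases apart, with Optc 615 bases beyond Prelp. Bgn is alone on the X chromosome (chrX:73483601-73495936). The 3 genes on chromosome 13 lie inside the span of Cenpp, a centromere protein gene on the opposite strand, yet only 7 of the 2354 exon bases of Aspn, and none of Omd or Ogn, are also exon of Cenpp. Prelp shares 350 of its 3615 exon bases with the antisense transcript Gm15851. The handling of strand was not given in the sources used here, so reads in these shared bases cannot be assigned to one gene.

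RefSeq promoters (GRCm38.p6, 250 bases before to 50 after the start of transcription) were matched for 6 of the 8 genes, all but Dcn and Lum. Those given here are from Bgn, the most abundant member at day 7 (chrX:73483351-73483650, plus strand), from Prelp and its neighbour Fmod, which stood on opposite sides of 0 at day 7 (chr1:133921352-133921651, minus strand, and chr1:134037004-134037303, plus strand), and from Ogn in the chromosome 13 cluster (chr13:49607765-49608064, plus strand). The Prelp window lies inside the span of Prelp given above, so it belongs to an internal start of transcription. Those of Bgn, Fmod and Ogn lie at the start of their gene's span. Capitals mark matches, on either strand, to TATAAA (the TATA box), to CCAAT (the CCAAT box), to TGANTCA (the letters of an AP-1 motif) and to GGGCGG (the GC box).
Bgn: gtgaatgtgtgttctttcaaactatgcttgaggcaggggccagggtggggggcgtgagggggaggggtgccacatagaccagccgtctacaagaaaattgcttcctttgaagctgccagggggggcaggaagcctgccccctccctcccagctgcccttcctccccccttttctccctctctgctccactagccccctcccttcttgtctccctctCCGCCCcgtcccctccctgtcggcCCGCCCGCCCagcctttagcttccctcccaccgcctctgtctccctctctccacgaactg
Prelp: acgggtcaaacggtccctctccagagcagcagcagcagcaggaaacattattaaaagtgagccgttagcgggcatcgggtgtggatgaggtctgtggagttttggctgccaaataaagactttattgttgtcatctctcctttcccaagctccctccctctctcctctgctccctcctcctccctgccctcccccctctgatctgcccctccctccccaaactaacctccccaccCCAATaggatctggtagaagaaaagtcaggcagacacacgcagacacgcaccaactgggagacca
Fmod: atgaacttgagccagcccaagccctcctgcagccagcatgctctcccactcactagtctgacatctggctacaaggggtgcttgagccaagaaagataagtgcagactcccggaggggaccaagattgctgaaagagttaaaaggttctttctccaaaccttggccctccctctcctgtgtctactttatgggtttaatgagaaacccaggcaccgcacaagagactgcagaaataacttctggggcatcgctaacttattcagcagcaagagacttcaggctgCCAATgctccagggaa
Ogn: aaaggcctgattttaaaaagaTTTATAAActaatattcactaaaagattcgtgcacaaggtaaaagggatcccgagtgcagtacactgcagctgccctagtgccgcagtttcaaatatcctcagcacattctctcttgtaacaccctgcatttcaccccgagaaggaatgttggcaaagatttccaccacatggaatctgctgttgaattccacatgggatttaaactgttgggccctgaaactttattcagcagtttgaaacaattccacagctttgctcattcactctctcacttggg
The letters GGGCGG were found in the Bgn promoter only, with 3 matches of which 2 overlap, and in 35.7% of the 32851 RefSeq promoters. CCAAT was found in the Prelp, Fmod and Aspn promoters, against 37.4% of all promoters. TATAAA was found in the Ogn and Aspn promoters, with 2 matches in each, which overlap each other in Ogn, against 13.6% of all promoters. TGANTCA and the CArG box were found in none of the 6, against 7.81% and 1.63% of all promoters. The Bgn promoter is GC-rich, at 63.7% G or C, whereas those of Aspn and Omd hold 31% and 37.7%, against a median of 52.7% over all promoters.

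In the day 7 samples labelled Sertoli the 8 genes covered a wide range of levels, and Bgn alone made up most of their RNA. These samples also expressed peritubular and stromal marker genes, as given below. Bgn, which carries chondroitin or dermatan sulfate chains and can signal through Toll-like receptors once freed from the matrix, was at 958 and 994 FPKM in the controls and at 1508 and 1553 FPKM in the Amh-Rnf20-/- samples. Among all listed genes it ranked 105 and 100 for the controls, and 54 and 60 for the Amh-Rnf20-/- samples. Its 2 groups did not overlap, and each was tight. The next member in the controls was Prelp at 66.5 ± 3.70 FPKM (mean ± SD, n = 2), then Dcn at 34.5 ± 0.969, Ogn at 4.78 ± 0.219 and Lum at 2.41 ± 0.0354 FPKM, with no overlap between neighbours in this order. Fmod and Aspn followed at 1.35 ± 0.325 and 1.17 ± 0.205 FPKM and overlapped each other. Omd was at 0.15 and 0.10 FPKM, from 4 and 3 counts. Under the Amh-Rnf20-/- label Dcn stood second, above Prelp, and Fmod and Lum overlapped.

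**Figure D1:**
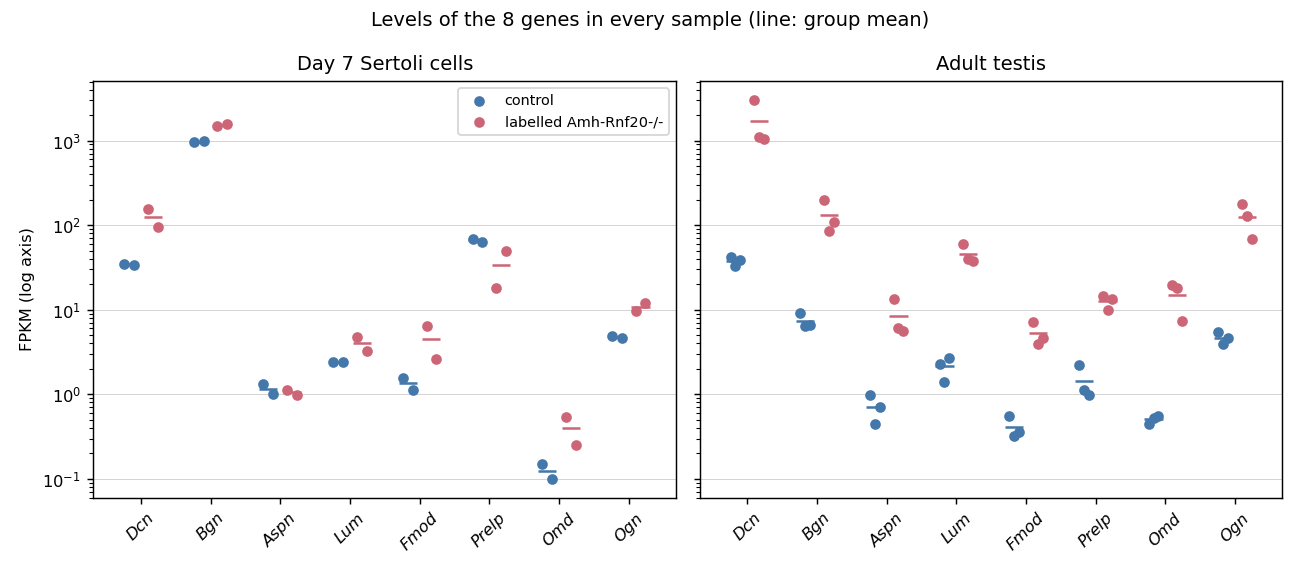
FPKM of the 8 genes in each sample on a log axis, at day 7 (2 control and 2 Amh-Rnf20-/- samples) and in adult testis (3 and 3 libraries), with points for samples and lines for group means. At day 7 Bgn is above 958 FPKM in every sample and Prelp is lower under the Amh-Rnf20-/- label, while in adult testis all 8 genes are higher in each labelled knockout library than in any control.

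At day 7 none of the 7 members tested passed an adjusted p of 0.05 in edgeR's quasi-likelihood test with TMM scaling, and none of the 12880 genes tested did either, for which percent called was 0. At an unadjusted p under 0.05 the test gave 1997 genes, among them 5 members with a higher value in the Amh-Rnf20-/- samples, Dcn, Bgn, Lum, Fmod and Ogn, against 8.52% of all genes tested in that direction, and none lower, against 6.99%. These same 5 also had groups that did not overlap on TMM-scaled counts, against 24.8% of all genes, and Prelp was the single member whose groups were apart in the other direction, against 26.1%. DESeq2, run on the same genes, called 388 genes higher, or 3.01%, among them Dcn, Bgn, Fmod and Ogn. The members' median log2 fold change was 0.78, beside -0.00388 over all genes tested, and 5.27% of genes lay above the members' median. Omd did not pass the filter on low values.

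Dcn, the prototype of the family, which binds fibrils of collagen type I and sequesters TGF-beta, was at 35.2 and 33.8 FPKM in the controls and at 157 and 94.7 FPKM in the Amh-Rnf20-/- samples. Both Amh-Rnf20-/- samples were above both controls, and they differed from each other 1.66-fold. The fitted log2 fold change was 1.91 (SE 0.27, edgeR adjusted p = 0.132). Bgn had a smaller difference with less spread, 0.69 on the log2 scale (SE 0.07, edgeR adjusted p = 0.119). Aspn, the class I member that lacks the usual chain attachment site and carries a run of aspartate residues, showed 1.31 and 1.02 FPKM in the controls and 1.13 and 0.98 FPKM in the Amh-Rnf20-/- samples. The 2 groups of Aspn overlapped, from 36 to 48 counts per sample (log2 fold change -0.11, SE 0.27, edgeR adjusted p = 0.887).

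In class II, Lum, a keratan sulfate proteoglycan that limits fibril width, was at 2.43 and 2.38 FPKM in the controls and at 4.79 and 3.27 FPKM in the Amh-Rnf20-/- samples (log2 fold change 0.78, SE 0.26, edgeR adjusted p = 0.287). Fmod, which binds the same region of collagen as Lum and directs collagen cross-linking, was at 1.58 and 1.12 FPKM in the controls and at 6.34 and 2.58 FPKM in the Amh-Rnf20-/- samples. Both genes had no overlap between groups, and in both the Amh-Rnf20-/- sample 1 was the higher one. Fmod differed by 1.76 on the log2 scale, with a wide error (SE 0.51, edgeR adjusted p = 0.251). Prelp, which binds heparan sulfate through a basic stretch and links basement membranes to collagen, went the other way, at 69.1 and 63.9 FPKM in the controls and at 17.9 and 49.9 FPKM in the Amh-Rnf20-/- samples. The Amh-Rnf20-/- sample 1 was far below the controls and sample 2 only a little below them, which gave a log2 fold change of -0.93 with an SE of 0.49 (edgeR adjusted p = 0.428). Omd, an SLRP of mineralised and other connective tissues that binds cells through integrins, had 15 and 7 counts in the Amh-Rnf20-/- samples against 4 and 3 in the controls, a ratio of 3.14 with an exact 95% interval of 1.29 to 8.69 that covers counting error only.

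Ogn, the class III member also named mimecan, was at 4.93 and 4.62 FPKM in the controls and at 9.74 and 12.1 FPKM under the knockout label. Its values did not overlap, and here the Amh-Rnf20-/- sample 2 was the higher one (log2 fold change 1.23, SE 0.15, edgeR adjusted p = 0.132). The Amh-Rnf20-/- sample 1 had the highest value of its group for Dcn, Aspn, Lum, Fmod and Omd, and sample 2 for Bgn, Prelp and Ogn. Without sample 1 the log2 fold change of Prelp was -0.38, that of Fmod 0.97 and that of Lum 0.48. Without sample 2 they were -1.85, 2.27 and 1.04. With either of these samples left out, the group is 1 sample whose spread is taken from the controls, and edgeR then called 5 members without sample 1, beside 21.4% of all genes, and 6 without sample 2, beside 39.9%. Prelp was among them both times, with its values lower.

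**Figure D2:**
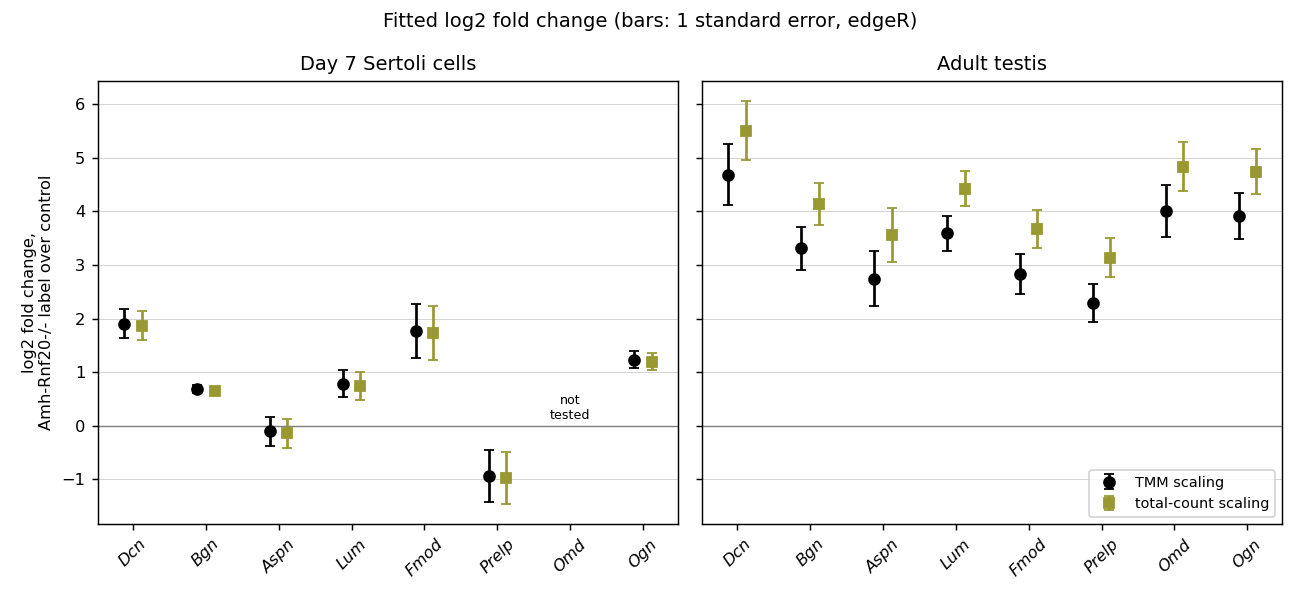
Log2 fold change of each gene with its standard error from edgeR, at day 7 and in adult testis, under TMM scaling (circles) and total-count scaling (squares). At day 7 Dcn, Fmod and Ogn are the furthest above 0 and Prelp is at -0.93, while in adult testis the values run from 2.29 for Prelp to 4.68 for Dcn under TMM scaling.

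In adult testis all 8 members were higher in the libraries labelled Amh-Rnf20-/- than in the controls, and every labelled knockout library was above every control library for each of them, beside 42.4% of all genes tested for which that held on TMM-scaled counts. All 8 passed an adjusted p of 0.05 in edgeR's test, beside 40.9% of the 15919 genes tested that were called higher, and 40.6% that were called lower. With the thresholds the study used, an adjusted p under 0.001 and an absolute log2 fold change over 1, 6 of the 8 passed, all but Aspn and Prelp, beside 23% of all genes. A fitted change over 8-fold was reached by Dcn, Bgn, Lum, Omd and Ogn, beside 11.1% of all genes. The members' median log2 fold change was 3.45 beside 0.01 over all genes, and 7.36% of genes lay above it. Scaling by total count alone moved the median of all genes to 0.87 and raised each member by about as much, with all 8 still called, beside 54.1% of all genes. Fmod, Aspn and Omd had fewer than 3 controls at 0.5 FPKM and passed the filter on low values only with the labelled knockouts, so their calls are not free of that choice. With no filter all 8 were called as well, beside 34.7% of 19983 genes.

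Dcn led the class I genes, with 42.4, 32.6 and 38.8 FPKM in the controls and 3024, 1109 and 1053 FPKM in the labelled knockouts. The labelled knockout 1 was 2.87 times the lowest of its group, yet the lowest was still far above the controls. The log2 fold change was 4.68 (SE 0.57, edgeR adjusted p = 0.00044), and 211 of the 15919 genes had a larger one. Dcn moved from ranks between 2686 and 3120 among all genes to ranks between 27 and 89. Bgn was at 9.22, 6.40 and 6.58 FPKM in the controls and at 197, 86.2 and 109 FPKM in the labelled knockouts, a log2 fold change of 3.31 (SE 0.40, edgeR adjusted p = 0.000411). Aspn was low in the controls, at 0.97, 0.45 and 0.70 FPKM, and reached 13.6, 6.01 and 5.61 FPKM in the labelled knockouts. Its change was 2.74 on the log2 scale (SE 0.51), the least precise relative to its size among the 8. With no filter on low values, the change of Aspn was 2.78 (edgeR adjusted p = 0.00256).

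Among the class II genes Lum and Omd changed most. Lum was at 2.29, 1.41 and 2.70 FPKM in the controls and at 59.9, 40.1 and 38.1 FPKM in the labelled knockouts, a log2 fold change of 3.59 (SE 0.33, edgeR adjusted p = 0.000139). Omd, with 12 to 15 counts per control library, was at 0.45, 0.53 and 0.56 FPKM there and at 19.5, 17.9 and 7.37 FPKM in the labelled knockouts. For Omd the labelled knockout 3 was well below the other 2, and the change was 4.0 on the log2 scale (SE 0.48). With no filter on low values, the change of Omd was 4.04 (edgeR adjusted p = 0.000373). Fmod stood at 0.55, 0.32 and 0.36 FPKM in the controls and at 7.24, 3.96 and 4.61 FPKM in the labelled knockouts, which gave 2.84 (SE 0.37). Its change with no filter on low values was 2.88 (edgeR adjusted p = 0.000559). Prelp had the smallest change of the 8, from 2.20, 1.11 and 0.99 FPKM to 14.7, 9.89 and 13.4 FPKM, and a log2 fold change of 2.29 (SE 0.35, edgeR adjusted p = 0.00118). The labelled knockouts were closest to each other for Prelp, with the highest library at 1.49 times the lowest.

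Ogn was at 5.46, 3.89 and 4.62 FPKM in the controls and at 179, 127 and 68.0 FPKM in the labelled knockouts. The groups were far apart, although the labelled knockouts differed up to 2.63-fold among themselves, and the change was 3.91 on the log2 scale (SE 0.43, edgeR adjusted p = 0.000285). The labelled knockout 1, the library that stood apart in its germ cell and Sertoli markers, had the highest value for each of the 8 members. Without it, all 8 were still called, and Dcn changed by 4.08, Bgn by 2.96, Aspn by 2.29, Lum by 3.44, Fmod by 2.62, Prelp by 2.25, Omd by 3.86 and Ogn by 3.65 on the log2 scale.

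The order of levels in the adult controls was Dcn, Bgn, Ogn, Lum, Prelp, Aspn, Omd and Fmod, in which Lum and Prelp overlapped, as did Aspn with Omd and Omd with Fmod. In the labelled knockouts the order was Dcn, Bgn, Ogn, Lum, Omd, Prelp, Aspn and Fmod, in which Bgn and Ogn overlapped and the last 4 each overlapped their neighbour. The tables were normalized separately, so that levels are compared between them here only side by side. Dcn stood at 34.5 ± 0.969 FPKM in the day 7 controls and at 37.9 ± 4.94 FPKM (n = 3) in the adult controls, and Ogn at 4.78 ± 0.219 and 4.66 ± 0.786 FPKM, with overlapping ranges in both genes. Bgn stood at 976 ± 25.4 FPKM in the day 7 controls and at 7.40 ± 1.58 FPKM in the adult controls. Prelp stood at 66.5 ± 3.70 and 1.43 ± 0.667 FPKM. For Bgn and Prelp every day 7 sample was above every adult library of either label, whereas for Dcn, Lum, Omd, Ogn and Aspn the adult labelled knockouts were above all other groups.

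The make-up of the summed FPKM of the 8 genes was compared next, since a share does not depend on how libraries are scaled. The day 7 controls summed to 1073 and 1101 FPKM and the Amh-Rnf20-/- samples to 1706 and 1717 FPKM. The adult controls summed to 63.6, 46.8 and 55.3 FPKM and the labelled knockouts to 3515, 1400 and 1299 FPKM. At day 7 Bgn held 89.8% ± 0.692 of the sum in the controls and 89.4% ± 1.44 in the Amh-Rnf20-/- samples (SD, n = 2), and its groups overlapped. From estimated counts the direction turned, with a difference of 2.52 percentage points and no overlap. The controls gave Prelp 6.44% and 5.80%, and the Amh-Rnf20-/- samples 1.05% and 2.91%, while for Dcn these shares were 3.28% and 3.07%, then 9.21% and 5.52%. Both were apart between groups, with an exact two-sided permutation p of 0.333, the smallest that 2 against 2 allows. Without the Amh-Rnf20-/- sample 1 the difference in the share of Dcn was 2.34 percentage points, in place of 4.18.

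In adult testis Dcn took the largest share in each library. The controls gave it 66.7%, 69.8% and 70.1%, and the labelled knockouts 86.0%, 79.2% and 81.1%. The share of Dcn was higher by 13.2 percentage points (exact two-sided permutation p = 0.1, the smallest that 3 against 3 allows). Bgn held 13.4% ± 1.33 in the controls and 6.71% ± 1.46 in the labelled knockouts (SD, n = 3), without overlap, and the shares of Aspn, Lum, Fmod and Prelp were also lower without overlap between groups. That of Lum was lower by -1.33 percentage points, but its groups overlapped when shares were taken from estimated counts, and without the adult control 3 the difference was -0.81. From estimated counts the shares of Fmod and Prelp differed by -0.691 and -3.29 points in place of -0.452 and -1.82. Those of Ogn and Omd overlapped, at 8.42% ± 0.147 and 6.46% ± 2.26 for Ogn. The 8 shares tested per table add up to 100, so they are not independent of each other. Dcn relative to its neighbour Lum was 14.5 and 14.2 in FPKM in the day 7 controls and 32.8 and 29.0 in the Amh-Rnf20-/- samples. The adult controls had ratios of 18.5, 23.1 and 14.4, and the labelled knockouts 50.5, 27.7 and 27.6. The ratio was thus higher under the knockout label in both tables, without overlap. For Fmod to Prelp the day 7 controls had ratios of 0.0229 and 0.0175 and the Amh-Rnf20-/- samples 0.354 and 0.0517, and its adult groups overlapped. These ratios were chosen after the values were seen and are given with no test.

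**Figure D3:**
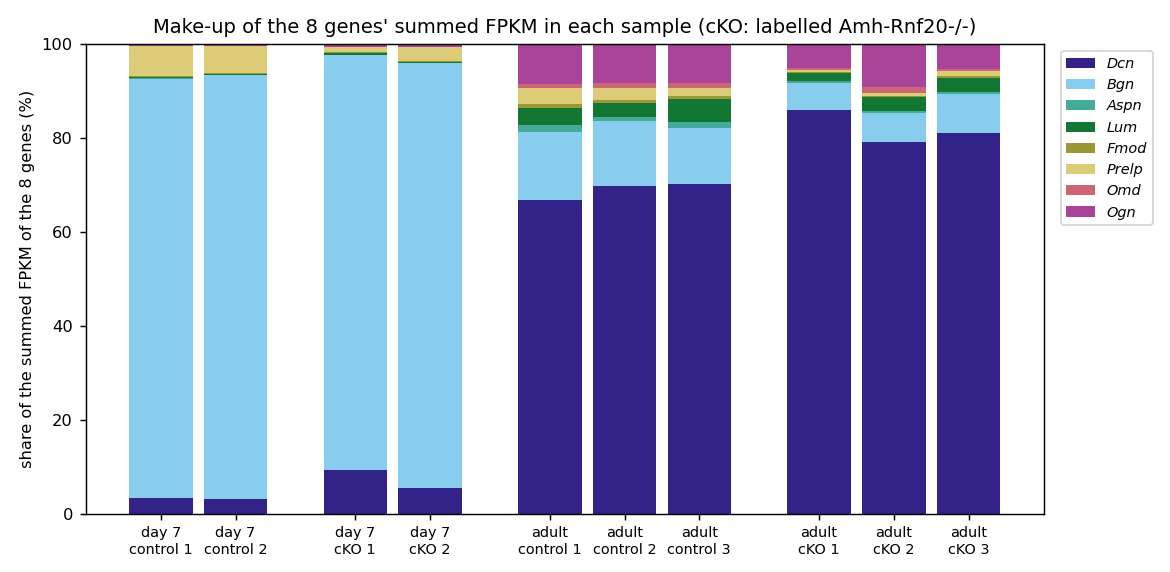
Share in percent of each gene in the summed FPKM of the 8 genes, as stacked bars from 0 to 100, for each of the 10 samples (cKO marks the label Amh-Rnf20-/-). Bgn fills most of each day 7 bar and Dcn most of each adult bar, with the Dcn part of the labelled knockouts between 79.2% and 86.0%.

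The members were then set beside markers of the cells that these samples hold. At day 7 the samples labelled Sertoli expressed the Sertoli markers Sox9, Wt1 and Gata4 at 40.6 ± 1.70, 70.0 ± 0.643 and 129 ± 0.375 FPKM in the controls (SD, n = 2), and also the smooth muscle actin gene Acta2 at 1078 ± 27.8 FPKM and the collagen gene Col1a1 at 1029 ± 24.5 FPKM. The summed FPKM of the 18 Sertoli markers was 2754 to 3009 in the controls and 1884 to 2224 in the Amh-Rnf20-/- samples. The sum of the 10 peritubular myoid markers was 2637 to 2786 and then 4450 to 4654 FPKM, and that of the 12 stromal fibroblast markers 2229 to 2325 and then 3429 to 3970 FPKM. None of these markers passed an adjusted p of 0.05 in edgeR's test, while 10 of 10 peritubular and 10 of 11 stromal markers tested were higher at an unadjusted p under 0.05, beside 8.52% of all genes. These markers thus stood higher in the same samples as Dcn, Bgn, Lum, Fmod and Ogn. The sum of the Leydig markers was also higher there, at 330 to 413 FPKM against 275 to 284 FPKM in the controls. Of the 7 Leydig markers tested 3 were higher at that p, beside 8.52% of all genes, with a median log2 fold change of 0.08. The tunica and mesothelium sum was 43.5 and 23.1 FPKM in the Amh-Rnf20-/- samples 1 and 2, against 20.9 to 25.0 FPKM in the controls. The macrophage sum was 55.6 and 32.35 FPKM, against 28.3 to 33.1 FPKM. Sums of 2 germ cell lists were lower, at 141 to 147 against 203 to 211 FPKM for the spermatogonium list and at 12.6 to 15.6 against 19.2 to 22.9 FPKM for the spermatocyte list. None of their markers passed the adjusted threshold. At an unadjusted p under 0.05, 6 of 10 spermatogonium and 1 of 7 spermatocyte markers tested were lower, beside 6.99% of all genes. The spermatid sums overlapped, at 22.3 to 25.6 against 24.4 to 24.8 FPKM. The part of these markers in the members' differences was not tested.

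In adult testis 10 of 12 stromal fibroblast markers were called higher in the libraries labelled Amh-Rnf20-/- and 1, Pi16, lower, and their sum went from 16.2 to 20.01 FPKM in the controls to 259 to 454 FPKM. Their median log2 fold change was 3.84, beside 3.45 for the members. Of the 10 peritubular markers 8 were called higher and 1, Actg2, lower, with a median of 2.49, and of the 10 Leydig markers all were called higher, with a median of 3.76. All 10 macrophage markers and 6 of 8 endothelial markers were called higher too, where 40.9% of all genes were. So were all 6 pericyte and vascular smooth muscle markers, and 4 of 5 tunica and mesothelium markers, with 1, Muc16, lower. Of the 18 Sertoli markers 8 were called higher and 1, Rhox5, lower. The Sertoli sum was 1062 to 1373 FPKM in the controls and 3287 to 9628 FPKM in the labelled knockouts. The filter on low values was passed only with the labelled knockouts by 5 of the endothelial markers, 4 of the stromal, 2 of the peritubular and 2 of the macrophage markers. The same held for 4 of the pericyte, 3 of the tunica and 2 of the Sertoli markers. With no filter these counts were the same, beside 34.7% of all genes called higher. All 10 spermatid markers were called lower, with the filter and without it, where 40.6% and 35.8% of all genes were. No marker of these lists was at 0 in all libraries. The part of these shifts in the members' values was not tested.

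Relative to the mean log2(FPKM + 0.1) of each marker list, the 8 members separated. In adult testis all 8 were higher relative to the Sertoli list, by 1.47 to 3.69 on the log2 scale, and relative to the peritubular list, by 0.85 to 3.06, without overlap between groups. With a pseudocount of 1 in place of 0.1, Fmod and Aspn overlapped against the Sertoli list, at 0.64 and 0.90, and Aspn against the peritubular list, at 0.47, where Fmod stood at 0.22 and Omd at 1.39, in place of 1.11 and 2.23, without overlap. Without the labelled knockout 1, the library with the lowest Sertoli sum of its group, the differences from the Sertoli list were 0.63 for Aspn, 0.71 for Prelp, 0.83 for Fmod and 1.41 for Bgn, against 1.68, 1.47, 1.73 and 2.41 with it. Relative to the stromal fibroblast list Dcn and Ogn were higher without overlap, by 1.48 and 0.77, Fmod and Prelp were lower without overlap, by -0.47 and -0.73, and the other 4 overlapped. This split depended on the pseudocount, since at 1 Bgn and Lum were also higher without overlap, both by 0.90, Aspn was lower without overlap, by -0.63, Dcn stood at 2.30, Ogn at 1.37 and Fmod at -0.88, and Prelp overlapped, at -0.50. Without the adult control 1 the difference of Prelp was -0.48. Relative to the Leydig list Dcn was higher without overlap, by 0.82, which was 0.44 without the labelled knockout 1, and Aspn, Fmod and Prelp were lower without overlap, by -1.18, -1.13 and -1.39. At a pseudocount of 1, Aspn and Fmod stood at -2.05 and -2.30, and Lum and Omd were lower than the Leydig list too, by -0.52 and -1.13. Each exact two-sided permutation p without overlap was 0.1, the smallest possible.

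At day 7, Dcn and Ogn were above the stromal list, by 0.98 and 0.33, Prelp, Aspn and Bgn were below it, by -1.98, -0.96 and -0.19, and Lum, Fmod and Omd overlapped (smallest possible exact permutation p = 0.333). Single samples moved these values. Without the Amh-Rnf20-/- sample 1, Ogn stood at 0.54, Prelp at -1.20 and Bgn at -0.11, and without sample 2, Ogn stood at 0.12 and Prelp at -2.77. At a pseudocount of 1, Lum and Omd were below the list without overlap, by -0.22 and -0.46. Relative to the Sertoli list 6 members were higher without overlap and 1, Prelp, lower, by -0.41, or -0.13 without sample 1. Against the Leydig list 6 were higher and 2, Aspn and Prelp, lower, but Omd overlapped at a pseudocount of 1, at 0.07. Against the peritubular list 2, Dcn and Ogn, were higher, 2, Aspn and Prelp, were lower, and 4 overlapped.

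**Figure D4:**
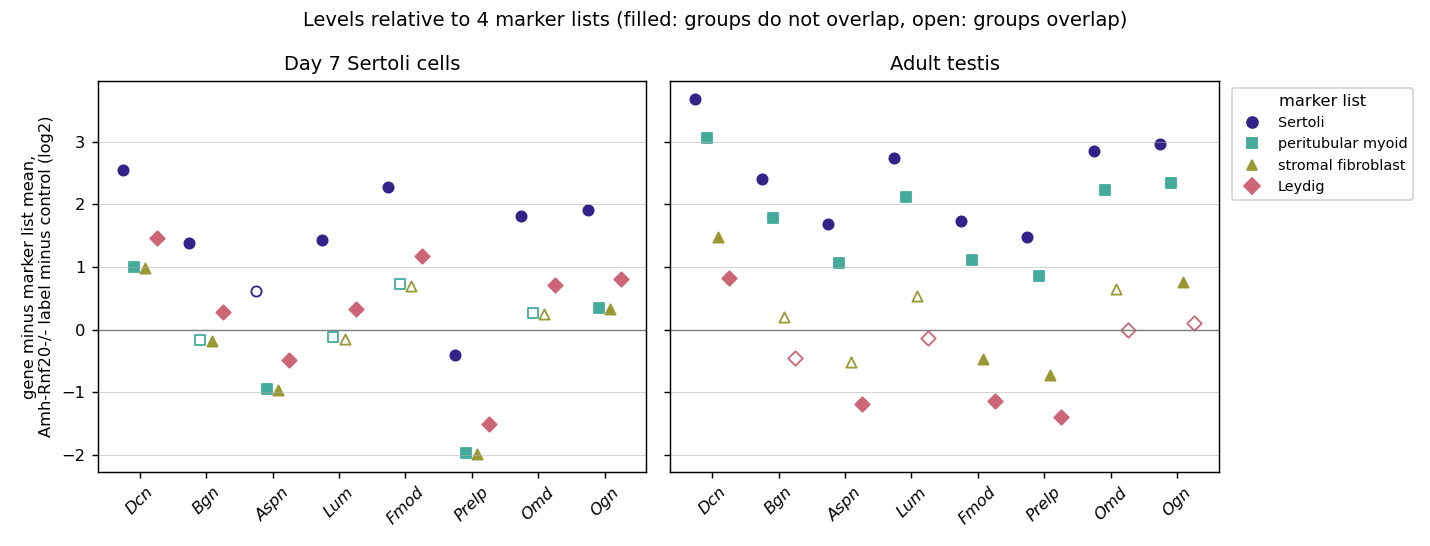
Difference between the labels, on the log2 scale, of each gene's level relative to the mean of 4 marker lists, at a pseudocount of 0.1, with filled symbols where the groups do not overlap. In adult testis all 8 genes lie above 0 for the Sertoli and peritubular lists, whereas for the stromal list they run from -0.73 (Prelp) to 1.48 (Dcn).

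The genes beside the members on the chromosomes did not all share their pattern. Ecm2, an SLRP-like gene next to Aspn, was at 1.16, 1.13 and 1.27 FPKM in the adult controls and at 56.2, 35.6 and 35.4 FPKM in the labelled knockouts, a log2 fold change of 4.31 (SE 0.28, edgeR adjusted p = 4.9e-05). Optc, next to Prelp, was at 0.08, 0 and 0.07 FPKM and then at 0.50, 0.98 and 1.76 FPKM. It passed the filter on low values only through the labelled knockouts, so no test is given for it. Epyc, in the Dcn and Lum cluster, stood at 20.6, 18.6 and 20.3 FPKM in the controls and at 0.56, 8.81 and 14.2 FPKM in the labelled knockouts, where it missed the threshold under TMM scaling (log2 fold change -2.23, SE 0.89, edgeR adjusted p = 0.0556). Its adjusted p was 0.0389 under median-ratio scaling in edgeR, 0.00904 in DESeq2 and 0.206 under total-count scaling in edgeR. Kera, between Lum and Epyc, had at most 6 counts in any adult library and was not listed at day 7. Cenpp, whose span covers Aspn, Omd and Ogn, was named after its values were seen. It fell by 3.20 on the log2 scale in the adult labelled knockouts (SE 0.37, edgeR adjusted p = 0.000354), against the direction of those 3 genes.

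The other genes of the SLRP pathway were read by lists. Since 36 of the 91 genes of these lists tested in adult testis passed the filter on low values only with the labelled knockouts, the adult counts here are over all listed genes with no filter, where 34.7% of 19983 genes were called higher and 35.8% lower. Of the 10 other SLRP family genes, 6 were called higher and 1, Chadl, lower. Chadl was not called under total-count scaling. Tsku, a secreted SLRP that binds growth factors, was high in the labelled knockouts with Ecm2, at 28.2 ± 5.81 FPKM against 0.803 ± 0.264 FPKM (SD, n = 3) in the controls. At day 7 Tsku was at 22.5 ± 0.799 and 29.5 ± 9.15 FPKM (SD, n = 2). Of the 22 genes of chondroitin and dermatan sulfate synthesis 18 were called higher in adult testis and 1 lower, and of the 8 genes of keratan sulfate synthesis 6 were called higher and 1 lower. Chpf, which extends chondroitin chains, went from 6.93 ± 0.567 to 39.5 ± 9.28 FPKM, and B3gat3, which completes the linker between protein and chain, from 7.43 ± 0.633 to 35.0 ± 1.18 FPKM. Of the sulfotransferase genes, Chst3 was at 0.0767 ± 0.0208 and 2.65 ± 2.62 FPKM. Chst13 was at 0.817 ± 0.133 and 0.09 ± 0.05 FPKM, and passed the filter on low values only with the controls. In keratan sulfate synthesis B4galt1 rose from 3.04 ± 0.329 to 43.2 ± 2.74 FPKM, while the sulfotransferase gene Chst1 fell from 16.8 ± 0.773 to 1.82 ± 0.604 FPKM. Chst4 was at 0.0367 ± 0.0351 and 1.04 ± 0.334 FPKM.

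Of the 17 fibril collagens and partners, 12 were called higher in adult testis and 1, Col14a1, lower. Col1a2 went from 2.30 ± 0.348 to 79.2 ± 21.6 FPKM and Col3a1 from 3.26 ± 0.617 to 73.4 ± 23.0 FPKM (SD, n = 3), and Col1a1 and Col6a1 had the largest changes, 4.53 and 4.28 on the log2 scale. At day 7 none of the 17 passed the adjusted threshold, and 14 were higher at an unadjusted p under 0.05 and 1, Col5a3, lower, beside 8.52% and 6.99% of all genes, with a median of 0.67. Col1a1, Col1a2, Col3a1 and Dpt of this list are also among the stromal fibroblast markers. Col1a1 was there at 1029 ± 24.5 and 1591 ± 180 FPKM and Col1a2 at 777 ± 32.6 and 1194 ± 93.3 FPKM (SD, n = 2). Of the 12 enzymes that process collagen and SLRPs, 9 were called higher in adult testis and 1 lower. Pcolce, an enhancer of procollagen cleavage, reached 619 ± 139 FPKM from 34.0 ± 3.21 FPKM, and P4ha1, a subunit of prolyl hydroxylase, rose by 2.30 on the log2 scale. Pcolce2 was at 0.933 ± 0.0981 and 0.0667 ± 0.0611 FPKM, and passed the filter on low values only with the controls. The lysyl oxidase gene Loxl2 was at 0.243 ± 0.0551 and 7.45 ± 1.59 FPKM. At day 7 Pcolce was at 458 ± 8.37 and 492 ± 35.7 FPKM, and Lox at 215 ± 3.28 and 328 ± 96.0 FPKM, neither past the adjusted threshold.

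Of the 19 proteoglycans outside the SLRP family, 13 were called higher in adult testis and 3, Ncan, Sdc2 and Sdc3, lower. Under total-count scaling Sdc2 and Sdc3 were not called, at -0.12 and -0.05 on the log2 scale. Acan, a large proteoglycan of cartilage, was at 0.0333 ± 0.0153 and 2.49 ± 1.99 FPKM. Ncan, of the nervous system, was at 4.2 ± 1.04 and 0.0933 ± 0.0814 FPKM, and passed the filter on low values only with the controls. Spock2 was at 16.9 ± 1.54 and 98.1 ± 13.8 FPKM, and Srgn at 20.04 ± 0.661 and 45.8 ± 7.24 FPKM (edgeR adjusted p = 0.930). At day 7 their median was -0.08, with 4 of 17 tested higher and 4 lower at an unadjusted p under 0.05, beside 8.52% and 6.99% of all genes. Among them were Sdc4 at 506 ± 34.9 FPKM in the controls and 360 ± 19.1 FPKM in the Amh-Rnf20-/- samples, and Hspg2 at 75.6 ± 0.0990 and 110 ± 18.6 FPKM. Of the 17 receptors and ligands that SLRPs bind, 14 were called higher in adult testis and 3, Itga2, Erbb4 and Wnt1, lower. Itgb1 went from 8.83 ± 1.22 to 101 ± 2.76 FPKM and Lrp1, an endocytic receptor for Dcn, from 1.07 ± 0.151 to 29.7 ± 11.8 FPKM. Tgfb2 was at 0.0567 ± 0.0208 and 3.65 ± 1.86 FPKM, and Tlr4, a receptor for soluble Bgn, at 0.0567 ± 0.0404 and 2.42 ± 0.509 FPKM. At day 7 Itgb1 was at 263 ± 3.26 and 323 ± 34.0 FPKM and Lrp1 at 58.8 ± 0.679 and 81.5 ± 11.3 FPKM, and no gene of this list passed the adjusted threshold. Of the 15 tested there, 5 were higher and 3 lower at an unadjusted p under 0.05, beside 8.52% and 6.99% of all genes.

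**Figure D5:**
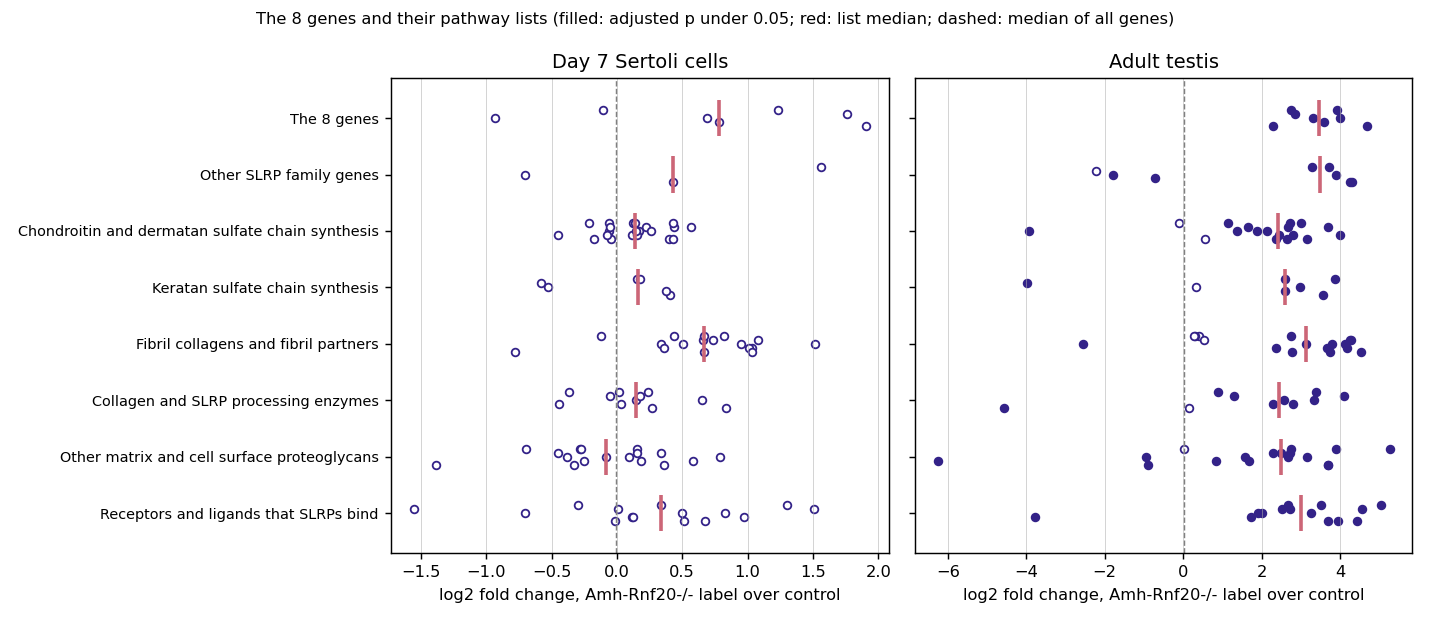
Log2 fold change of each tested gene of the 8 SLRPs and of 7 pathway lists, at day 7 and in adult testis, with filled points at an edgeR adjusted p under 0.05, a red bar at each median and a dashed line at the median of all genes. At day 7 no point is filled and the fibril collagens have a median of 0.67, while in adult testis most points are filled and lie on both sides of 0. Of the 91 adult pathway genes drawn, 36 passed the filter on low values only with the labelled knockouts.

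The genes whose pattern over all 10 samples was most like the mean of the 7 members tested in both tables were Adamts2, Plekhg3, Itm2a, Man1c1 and Wipf1, out of 12371 genes compared. Their root mean square distance from that mean, on log2 TMM-scaled counts centred within each table, was 0.112 to 0.158, against a median of 1.21 over all genes compared. Adamts2, which encodes a peptidase that trims the ends of procollagen, was at 34.2 and 33.0 FPKM in the day 7 controls, 46.7 and 49.4 FPKM in the Amh-Rnf20-/- samples, 0.42, 0.27 and 0.37 FPKM in the adult controls and 9.91, 5.59 and 5.94 FPKM in the adult labelled knockouts. It was chosen for its likeness to the members over these same samples, so its levels are a description with no test. Among the members themselves the distance ran from 0.121 for Bgn to 0.801 for Prelp, the member furthest from the mean, and Dcn was next at 0.638.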

How the data were processed

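The authors used HISAT with the GRCm38.p6 genome, Bowtie2 with the gene set, and RSEM for values per gene. Versions, read filters and strand handling were not given in the sources used here, and the methods describe the day 7 samples only. The deposited tables hold estimated counts per gene, which are not normalized, FPKM values, in which the authors divided by library size and gene length, and TPM values, also deposited, which were not used here. The adult table has 20 further columns without values, not used here. No label names a batch.

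Estimated counts were rounded and tested within each table by edgeR 4.0.16 (quasi-likelihood, TMM, Benjamini-Hochberg over all genes tested) in R 4.3.3. A gene entered the tests when its FPKM reached 0.5 in 2 samples at day 7 or in 3 adult libraries, which kept 12880 and 15919 genes. DESeq2 1.42.0 and limma 3.58.1, other scalings and filters, the thresholds of the study, a replicate block and leaving out each sample were alternatives. The tests were also run on simulated data, with no result given here. A standard error is the log2 fold change over the root of the test statistic. Shares and marker-relative levels used exact permutation tests, which cannot pass 0.05 here. Intervals cover counting error only.

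The members and lists were chosen with earlier results of these data known. Named genes are the 8 members, Rnf20, neighbouring SLRP genes, the 2 most abundant and 2 most changed called genes of each pathway list, and the 5 genes nearest in pattern. Cenpp, Gm15851, some marker genes, some genes that went against their list and some genes at day 7 are named as well.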

Additional observations from a re-analysis of the deposited data

Results flagged for a closer look

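Prelp stood out between the tables, with a log2 fold change of 2.29 in adult testis and -0.93 in the day 7 samples labelled Sertoli, a difference of 3.23. Every adult library labelled Amh-Rnf20-/- was above every adult control, and both day 7 Amh-Rnf20-/- samples were below both day 7 controls. The tables were normalized separately and hold different material, and the difference between them was not tested. Its day 7 value rests mostly on the Amh-Rnf20-/- sample 1, at 17.9 FPKM, against 49.9 FPKM in sample 2.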

How the results depend on the processing

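In adult testis each of the 112 log2 fold changes of members under an alternative kept its direction and its call, and 8 members stayed called except under the thresholds of the study, which left 6. Those thresholds gave 7432 genes in place of 12969. Of 84 such values at day 7, 68 kept direction and side, 15 passed the threshold under DESeq2 or without an Amh-Rnf20-/- sample, and 1 turned. DESeq2 called 581 genes and 4 members. Leaving out each day 7 sample gave 0 to 5136 called genes and 0 to 6 members, with 2757 genes and 5 members without the Amh-Rnf20-/- sample 1 and the highest counts without sample 2, where the lone sample is assumed to vary like the controls. The log2 fold change of Aspn then ran from -0.28 to 0.10. Same-numbered deviations correlated at 0.0316 at day 7 and at 0.00758, 0.00623 and 0.0273 in adult testis, so no pairing by replicate number was seen. So few samples per group cannot exclude a pairing. With the replicate block, 0 genes at day 7 and 12209 in adult testis were called, and Dcn changed by 1.86 and 4.47 on the log2 scale. From estimated counts in place of FPKM, the share of Bgn at day 7 differed by 2.52 percentage points, and it ran from -1.38 to 0.662 with a sample left out, while that of Lum ran from -0.0309 to 0.0594. With a pseudocount of 1, Omd at day 7 differed by -0.49 from the peritubular list and by -0.46 from the stromal list, and Ogn in adult testis by -0.05 from the Leydig list. With a sample left out, Lum at day 7 ran from -0.35 to 0.11 and from -0.36 to 0.08 against these lists, and Omd from -0.13 to 0.66 and from -0.14 to 0.63. Against the Leydig list in adult testis, Lum ran from -0.26 to 0.07, Omd from -0.22 to 0.29 and Ogn from -0.09 to 0.35. The cause of these turns was not tested. Low counts limit Omd, Aspn and Fmod in the controls.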
